A study of Mus musculus with 31 samples.

Results

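Imprinted genes are expressed mainly from the chromosome inherited from 1 parent, and many of them are active in neurons. This report covers 10 of the 52636 genes with values in striatal tissue of Brd1+/- mice, chosen by name as imprinted genes of neurons: Meg3, Rian, Mirg, Dlk1, Snrpn, Ndn, Magel2, Ube3a, Peg3 and Zdbf2. All 10 were found in the data by their Ensembl identifiers. The values do not separate the parental alleles, so they give the total of both copies.

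RNA was sequenced from 31 female mice, 8 to 11 weeks old, of the C57BL/6NTac-Brd1 line, in which Brd1+/- mice carry a targeted deletion in 1 copy of Brd1, which encodes a chromatin scaffold protein. The tissue was a 1 mm punch of the right caudate putamen (CPu), the dorsal striatum. The groups were vehicle administered WT (n = 8) and Brd1+/- mice (n = 7), given saline, and WT (n = 8) and Brd1+/- mice (n = 8) given the tricyclic antidepressant imipramine (IMN) at 10 mg/kg. Mice of every group received a pair of subcutaneous injections over consecutive days and were sacrificed after the same tail suspension, open field and forced swim tests, so no group shows undisturbed animals.

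The 10 genes belong to 4 imprinted regions. On chromosome 12 (GRCm38), Dlk1 (109452823 to 109463336, forward strand) is expressed from the paternal copy and encodes a membrane protein related to Notch ligands. Beside it lie the maternally expressed noncoding RNAs Meg3 (109541001 to 109571726), Rian (109603940 to 109661716), which is a host of small nucleolar RNAs, and Mirg (109729764 to 109749460), which carries microRNAs. On chromosome 7, the region lost in Prader-Willi and Angelman syndromes holds Snrpn (59982495 to 60140219, reverse strand), which encodes a core protein of neuronal splicing particles, and Ndn (62346569 to 62350262) and Magel2 (62377010 to 62381640), which encode MAGE family proteins. These are paternally expressed. Ube3a (59228750 to 59311536, forward strand), which encodes a ubiquitin ligase, is expressed from the maternal copy in neurons, where the long antisense RNA Snhg14 silences the paternal copy. Peg3 (chromosome 7, 6703892 to 6730431, reverse strand) and Zdbf2 (chromosome 1, 63273265 to 63314576) are paternally expressed and encode zinc finger proteins.

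The upstream sequences of these genes were searched because the study deals with antidepressants, which are known to act on signaling to the cAMP response element (CRE), a palindrome bound by CREB. In the 250 bases before the start sites given by RefSeq (GRCm38.p6), the CRE letters TGACGTCA were found for 3 of the 10 genes, Meg3, Peg3 and Zdbf2. Of 27025 genes, 1.77% had this motif at a start site, as did 1.55% of their 32851 start sites, and it reads the same on both strands. The stretches below run 5′ to 3′ on the strand of the gene, with the motif in capitals. Their positions are chr12:109540928-109540957 for Meg3, chr7:6730579-6730608 on the reverse strand for Peg3 and chr1:63273199-63273228 for Zdbf2.
Meg3: gcagaatgcgcTGACGTCAaagaccacccc
Peg3: actgactccgtTGACGTCAactccgtgcct
Zdbf2: cgcaccttcgcTGACGTCAgagctgcagtg
The motif began 57 bases before the start site of Meg3, 178 before that of Peg3 and 59 before that of Zdbf2. The stretch of Peg3 lies inside the annotated start of Usp29, its neighbor transcribed the other way from 6730578. The hexamer TGCCGC, the core of the sequence bound by the imprint-protecting protein ZFP57, was searched on both strands and found for Meg3, once and on the opposite strand, for Zdbf2, before another start site than the one with the CRE, and for 9.84% of all genes (8.68% of start sites). Its letters overlap those of no CRE here. Over the 250 bases, CpG dinucleotides numbered 24 for Ube3a, from 13 to 26 for the 2 start sites of Zdbf2, 10 for Mirg, 8 for Dlk1 and Peg3, 7 for Magel2, 5 for Ndn, from 2 to 4 for the 4 start sites of Snrpn, from 0 to 10 for the 2 of Meg3 and 0 for Rian, against a median of 6 for all start sites.

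The noncoding RNAs of chromosome 12 are also hosts of microRNAs. Of 18 hairpins on the same strand within Meg3, Rian or Mirg that have a RefSeq sequence, 5 lie whole within an annotated exon, 5 cross or touch an exon edge and 8 lie in introns. The 5 exonic hairpins are shown by a mature sequence each, with the seed (bases 2 to 8) in capitals, because RNA-seq reads over them belong to the host as well.
mmu-miR-770-5p: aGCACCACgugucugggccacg
mmu-miR-134-5p: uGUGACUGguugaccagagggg
mmu-miR-377-3p: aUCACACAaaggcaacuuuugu
mmu-miR-410-3p: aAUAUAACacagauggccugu
mmu-miR-485-3p: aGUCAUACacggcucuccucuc
The first lies in Meg3 (chr12:109563710-109563731, GRCm38.p6) and the others in Mirg (chr12:109734145-109734166, chr12:109740553-109740574, chr12:109743764-109743784 and chr12:109734946-109734967). No seed is shared among these 5. The rows of the 5 hairpins had medians between 0.322 and 1.39 TPM over the 31 mice, and they are no measure of the mature microRNAs.

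Values are TPM, a level per unit of gene length that is also scaled so that each mouse has the same total. Reads per mouse cannot be read from TPM, so the precision given is the spread between mice. Brd1 itself was lower in Brd1+/- mice, with log2 fold changes of −0.71 under vehicle and −0.60 under IMN (adjusted p = 0.0556 and 0.0396, limma). Several vehicle administered WT mice stood apart in markers of the tissue. The mean log2(TPM + 1) of 10 striatal projection neuron markers was from 3.20 to 9.16 in this group and at least 8.16 in every other group, and mice 1, 2, 4, 5 and 7 lay below all mice of the other groups. The same mean of 10 cortical neuron markers, the glutamate transporter gene Slc17a7 among them, was at medians of 5.28 (WT vehicle), 2.65 (Brd1+/- vehicle), 2.22 (WT IMN) and 2.62 (Brd1+/- IMN). WT vehicle mouse 7 also had 4 Y-linked genes at a sum of 26.8 TPM, against at most 0.171 TPM in the other groups, although all mice are labeled female. The group values below include these mice, and tests without the 5 mice low in striatal markers are given for the results they move most. In bulk tissue, fewer cells of a type and less RNA per cell cannot be told apart.

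**Figure D1:**
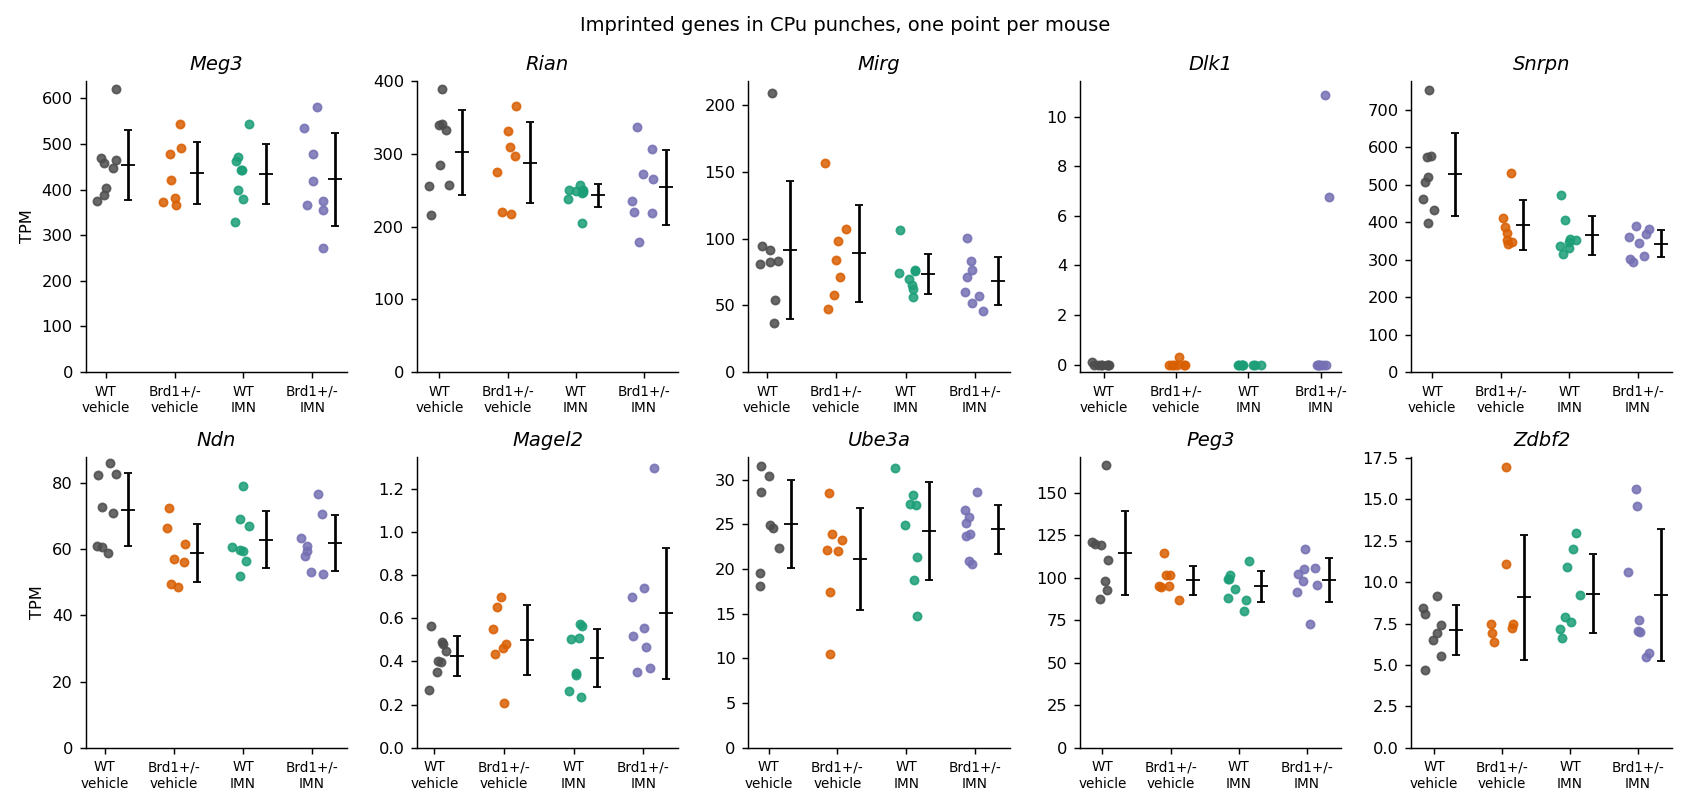
TPM of each imprinted gene (y axis) in the 4 groups (x axis), 1 point per mouse, with the mean and SD as a black bar beside the points except for Dlk1. Meg3, Snrpn and Rian have the highest levels, Magel2 stays at 1.29 TPM or less, and Dlk1 is listed at 0 in 27 of 31 mice.

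By mean TPM over the 31 mice, the order was Meg3 (436.6 ± 76.7, SD), Snrpn (407 ± 101), Rian (271 ± 51.9), Peg3 (101.7 ± 16.6), Mirg (80.2 ± 33.5), Ndn (64.0 ± 10.1), Ube3a (23.8), Zdbf2 (8.66), Dlk1 (0.583) and Magel2 (0.490 ± 0.201). The mean of Dlk1 (SD 2.27) rests on 2 mice and its median was 0, so that it was above Magel2 in 2 of 31 mice only. TPM is per length, so these levels may be compared between genes. Among neighbors in this order, the ranges over mice were apart only for Rian and Peg3 and for Ndn and Ube3a. Meg3 was above Snrpn in 18 of 31 mice, but in 1 of the 8 vehicle administered WT mice, whose means were 453 and 528 TPM, and Peg3 above Mirg in 29. Meg3 ranked 136th and Snrpn 156th in mean TPM of all genes.

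Of the noncoding RNAs of chromosome 12, Meg3 had lowest, median and highest values of 375, 453 and 621 TPM in vehicle administered WT mice, and of 367, 421 and 543 TPM in vehicle administered Brd1+/- mice. In the IMN groups these were 329, 444 and 544 TPM (WT) and 272, 397 and 581 TPM (Brd1+/-). All 4 ranges overlap widely. The log2 fold change of Meg3 lay between −0.07 and −0.05 in all 4 comparisons of 2 groups, with the 95% interval from −0.30 to 0.19 for the genotypes under vehicle and from −0.37 to 0.24 for IMN in Brd1+/- mice. After median-of-ratios scaling, which evens out the typical gene between mice, it was 0.14 for the genotypes under vehicle and 0.07 for IMN in WT mice. Between the genotypes under IMN it was −0.13 without Brd1+/- IMN mouse 3 and 0.02 without Brd1+/- IMN mouse 7.

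Rian was at 216, 309 and 389.8 TPM (lowest, median, highest) in vehicle administered WT mice and at 204, 248 and 258 TPM in WT IMN mice. Values of 7 of the 8 WT IMN mice lay within the range of the vehicle group, in a narrow band of 238 to 258 TPM, and 1 lay below it. In Brd1+/- mice the values were 217, 297 and 366 TPM under vehicle and 178, 250.1 and 337 TPM under IMN. With IMN its log2 fold change was −0.29 in WT mice (standard error 0.11, adjusted p = 0.149, limma) and −0.18 in Brd1+/- mice (standard error 0.14, adjusted p = 0.84, limma), the latter −0.12 without vehicle mouse 3 and −0.11 without IMN mouse 7. The value in WT mice misses the nominal threshold of p under 0.01. It passed when vehicle administered WT mouse 1 (−0.36), 5 (−0.32) or 6 (−0.32) was left out. Without the 5 vehicle administered WT mice low in striatal markers it was −0.34, which also passed (adjusted p = 1.0, limma), and after median-of-ratios scaling it was −0.17 and did not (adjusted p = 0.488, limma).

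Mirg varied most between mice of the members above 10 TPM, with a coefficient of variation of 41.8%. It was from 36.6 to 209.5 TPM in vehicle administered WT mice (median 83.0) and from 47.5 to 156.8 TPM in vehicle administered Brd1+/- mice (median 83.8). Under IMN it was between 56.6 and 106.5 TPM in WT (median 72.0) and between 45.6 and 100.2 TPM in Brd1+/- mice (median 65.4). The log2 fold change between the genotypes under vehicle was 0.02 with a 95% interval from −0.63 to 0.67, the widest of the 9 members tested in that comparison. With IMN it was −0.33 in Brd1+/- mice (95% interval −0.80 to 0.15, adjusted p = 0.812, limma), and −0.17 without vehicle mouse 6. In WT mice it was −0.18 (95% interval −0.70 to 0.35, adjusted p = 0.70, limma), and 0.01 without vehicle mouse 2 or −0.34 without vehicle mouse 7.

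Dlk1 was listed at 0 in 27 of 31 mice, among them all 8 WT IMN mice. It was at 0.119 TPM in WT vehicle mouse 1, at 0.304 TPM in Brd1+/- vehicle mouse 3, and at 10.9 and 6.76 TPM in Brd1+/- IMN mice 3 and 6. The other 6 Brd1+/- IMN mice were listed at 0. Dlk1 did not pass the filter on low values (above 0.1 TPM in at least 7 mice) and was not in the fits, so its values are given with no test.

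The mice with the most Dlk1 also stood apart within their groups in some of the other members. Brd1+/- IMN mice 3 and 6 ranked first and second of the 8 in their group for Zdbf2 (15.6 and 14.6 TPM), Magel2 (1.29 and 0.738 TPM), Ndn (76.8 and 70.6 TPM) and Meg3 (581 and 535 TPM), and lowest for Snrpn (301 and 294 TPM). The other 4 members did not have both at the top of the group. Mouse 3 was the highest for Mirg (100.2 TPM), but mouse 6 was 6th of 8 for Mirg (56.8 TPM) and Peg3 (95.9 TPM). For Rian, mouse 1 was highest (337 TPM) and mice 3 and 6 came next (307 and 273 TPM). For Ube3a, mouse 4 was highest (28.6 TPM) and mice 3 and 6 came next (26.6 and 25.9 TPM). By its group-centered log2(TPM + 1) over 31 mice, the gene outside the members most like Dlk1 was Peg10 (r = 0.922), a paternally expressed gene derived from a retrotransposon. Without mice 3 and 6 r was 0.588 on uncentered values, over 29 mice of which 27 were listed at 0 for Dlk1. Peg10 was at 20.6 and 12.4 TPM in these mice and between 5.11 and 8.59 TPM in the other 29. Cartpt, which encodes the CART neuropeptide and was chosen after its values were seen, was at 68.2 and 11.3 TPM in them and at most 4.32 TPM elsewhere. Brd1+/- vehicle mouse 3, the highest other mouse for Dlk1, was the highest of all mice for Zdbf2 at 16.96 TPM and of its group for Peg10 (8.59 TPM), Ndn (72.5 TPM), Meg3 (543 TPM) and Magel2 (0.698 TPM), and lowest of its group for Snrpn (343 TPM). WT vehicle mouse 1, the remaining mouse with Dlk1, did not have this pattern. It was the lowest of all mice for Zdbf2 (4.70 TPM), below its group's median for Meg3 (404 TPM) and second highest of its group for Snrpn (578 TPM), although the highest of all mice for Ndn (86.1 TPM) and of its group for Peg10 (8.00 TPM). Septum and basal forebrain markers in Brd1+/- IMN mice 3 and 6 had means of 1.71 and 1.72, the lowest of their group. Hypothalamus markers had means of 0.522 and 0.491, in a group range of 0.416 to 0.550. Of these 8 markers, 4 were at 0 in every mouse of the group. By summed TPM, hypothalamus markers were the highest of the group in mice 3 and 6, at 9.18 and 8.78 TPM. The other 6 mice had at most 7.99 TPM. Such sums reached 11.2 TPM in vehicle administered WT mice and 11.1 TPM in WT IMN mice. Striatal markers in mice 3 and 6, at means of 8.57 and 8.60, were the lowest of the group. Oligodendrocyte markers were too, at means of 7.15 and 6.40 against 7.69 or more in the other 6 mice. The part of tissue position in these values was not tested.

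**Figure D2:**
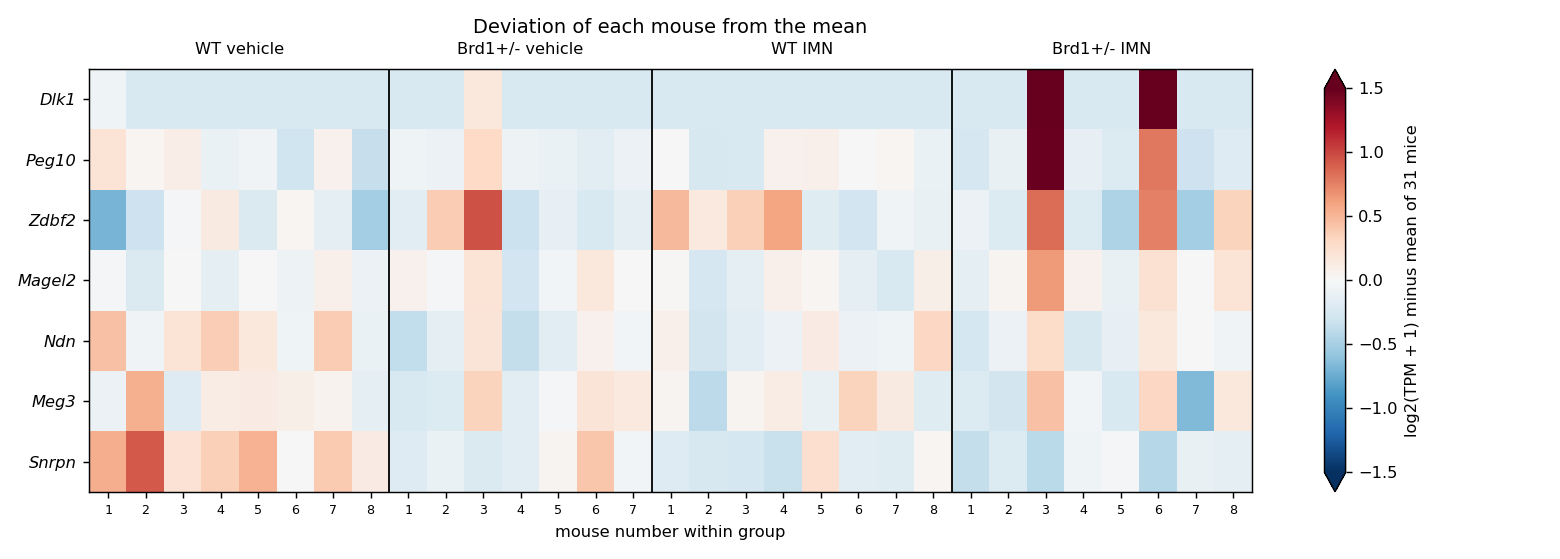
Deviation of log2(TPM + 1) from the mean of 31 mice (color, clipped at 1.5 in either direction) for 6 members and Peg10 (rows) in each mouse (columns). Brd1+/- IMN mice 3 and 6 are high for Dlk1, Peg10, Zdbf2, Magel2, Ndn and Meg3 and low for Snrpn, and WT vehicle mouse 2 is highest for Snrpn and Meg3.

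On the deposited TPM, Snrpn showed the largest difference between the vehicle groups of the 9 members tested, but Zdbf2 differed more after median-of-ratios scaling, with the cortical score as a covariate and without the WT mice low in striatal markers. It was at 397, 514 and 754 TPM (lowest, median, highest) in vehicle administered WT mice and at 343, 371 and 532 TPM in vehicle administered Brd1+/- mice. Of the 7 Brd1+/- mice, 5 lay below every WT mouse and mouse 6, at 532 TPM, lay above the WT median. The means were 528 ± 111 TPM (SD, n = 8) and 392 ± 66.4 TPM (SD, n = 7). The log2 fold change was −0.42 (standard error 0.13), which passed the nominal threshold but not an FDR of 5% (limma p = 0.00531, adjusted p = 0.0613; two-sided exact permutation p = 0.00777). After median-of-ratios scaling it was −0.23 and passed neither threshold (adjusted p = 0.247, limma).

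With IMN, Snrpn in WT mice was at 315, 349.7 and 473 TPM, and 6 of the 8 mice lay below all vehicle administered WT mice. The difference was −0.52 on the log2 scale (standard error 0.12, limma p = 0.000439, adjusted p = 0.141; exact permutation p = 0.00109), again nominal only. In Brd1+/- mice given IMN it was at 294, 351 and 389 TPM, and the difference from vehicle was −0.18 on the log2 scale (standard error 0.09, adjusted p = 0.736, limma), or −0.11 without vehicle mouse 6. Between the genotypes under IMN it was −0.08 (standard error 0.09, adjusted p = 0.998, limma), or −0.03 without WT IMN mouse 5 and −0.02 without Brd1+/- IMN mice 3 and 6. The difference between the genotypes in the effect of IMN was 0.33 (standard error 0.16, adjusted p = 0.292, limma interaction), which did not pass the threshold. The genotype comparison under vehicle, the comparison of IMN in WT mice and the interaction all use the same 8 vehicle administered WT mice.

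High Snrpn went with high cortical markers among the vehicle administered WT mice. The 6 vehicle administered WT mice with a cortical score of 4.65 or more had 462.6 to 754 TPM of Snrpn, and the other 2, mice 6 and 8 with scores of 1.20 and 1.23, had 397 and 432 TPM. In WT IMN mice the highest Snrpn, 473 and 407 TPM, was in mice 5 and 8, which had the highest cortical scores of their group, 4.85 and 4.24. Brd1+/- vehicle mouse 6, at 532 TPM, had a cortical score of 2.65. Without the 5 WT mice low in striatal markers, the log2 fold change of Snrpn was −0.15 between the vehicle groups (adjusted p = 1.0, limma) and −0.25 with IMN in WT mice (adjusted p = 1.0, limma), neither past the nominal threshold, where WT vehicle mice 3, 6 and 8 remain. With the cortical score as a covariate it was −0.23 (adjusted p = 0.662, limma) and −0.32 (adjusted p = 0.619, limma), and the second of these passed the nominal threshold. Without WT vehicle mouse 7 alone it was −0.42 and −0.52, and both passed (adjusted p = 0.101 and adjusted p = 0.208, limma). The nominal call under vehicle was lost, at log2 fold changes of −0.39 to −0.41, when WT mouse 1 or 5 or Brd1+/- mouse 1, 2, 3 or 4 was left out, and the call in WT mice was kept without any 1 mouse. An FDR of 5% was met in both comparisons when WT vehicle mouse 6 (adjusted p = 0.0199 and adjusted p = 0.047, limma) or 8 (adjusted p = 0.0239 and adjusted p = 0.0401, limma) was left out, the 2 with the lowest cortical scores of the group. The interaction was 0.06 without the 5 WT mice low in striatal markers (adjusted p = 1.0, limma), 0.16 with the cortical score (adjusted p = 0.885, limma), 0.19 after median-of-ratios scaling (adjusted p = 0.565, limma), and 0.41 without Brd1+/- vehicle mouse 6 (adjusted p = 0.26, limma), where alone of these it passed the nominal threshold.

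**Figure D3:**
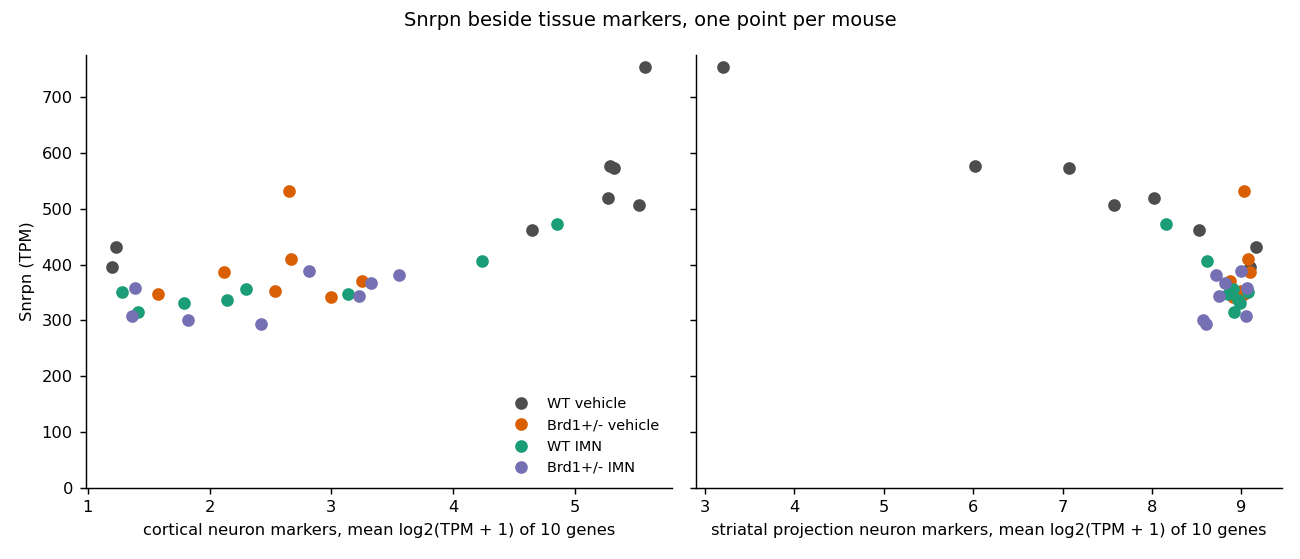
Snrpn in TPM (y axis) against the mean log2(TPM + 1) of 10 cortical (left) or 10 striatal (right) marker genes (x axis), 1 point per mouse, colored by group. Vehicle administered WT mice spread from 397 TPM at a cortical score of 1.20 to 754 TPM at 5.58, and all mice of the other groups but Brd1+/- vehicle mouse 6 lie at 473 TPM or less.

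Reads of Snrpn also fall on neighbors. Snurf, which shares its transcript, overlaps it on the same strand by 216 exonic bases and was at a median of 8.15 TPM over the mice, and the log2 fold changes of Snurf were −0.05 under vehicle (standard error 0.11, adjusted p = 0.766) and 0.04 with IMN in WT mice (standard error 0.11, adjusted p = 0.878, limma). Gm38393 overlaps Snrpn by 589 bases, so how the authors' counting divided these reads bears on both.

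Ndn was at 58.8, 71.9 and 86.1 TPM (lowest, median, highest) in vehicle administered WT mice and at 48.7, 57.2 and 72.5 TPM in vehicle administered Brd1+/- mice, 4 of 7 of which lay below every WT mouse. The groups differed by −0.28 on the log2 scale (standard error 0.11, p = 0.0192, adjusted p = 0.0977, limma; exact permutation p = 0.0264), short of the nominal threshold. It passed without WT mouse 8 (−0.32, adjusted p = 0.0427, limma) or Brd1+/- mouse 3 (−0.34, adjusted p = 0.0804, limma). It was −0.09 (adjusted p = 0.531, limma) after median-of-ratios scaling and −0.13 (adjusted p = 1.0, limma) without the WT mice low in striatal markers. Under IMN the genotypes were alike in range, at 52.0 to 79.1 TPM in WT and 52.4 to 76.8 TPM in Brd1+/- mice, and the log2 fold change was −0.02 with a 95% interval from −0.21 to 0.17.

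Magel2 stayed at low levels, from 0.267 to 0.563 TPM in vehicle administered WT mice and from 0.207 to 0.698 TPM in vehicle administered Brd1+/- mice. Under IMN it was from 0.237 to 0.572 TPM in WT and from 0.351 to 1.29 TPM in Brd1+/- mice, 3 of which lay above all WT IMN mice. The genotypes differed by 0.18 (log2, standard error 0.10, adjusted p = 0.998, limma), on a scale with a pseudocount of 1 that understates changes at this level. It was 0.11 without Brd1+/- IMN mouse 3 and 0.08 without mice 3 and 6.

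Ube3a was at 18.0 to 31.5 TPM in vehicle administered WT mice and 10.5 to 28.4 TPM in vehicle administered Brd1+/- mice, with a difference of −0.26 on the log2 scale (standard error 0.18, adjusted p = 0.32, limma). This was −0.11 without Brd1+/- vehicle mouse 6, −0.08 after median-of-ratios scaling and −0.02 without the WT mice low in striatal markers. Under IMN it was 14.8 to 31.3 TPM in WT and 20.6 to 28.6 TPM in Brd1+/- mice. Its antisense partner Snhg14 shares 1803 exonic bases with it and had a median of 14.3 TPM over the mice. Without a stated strand in the library preparation, reads from the 2 cannot be told apart there. Snhg14 had a log2 fold change of −0.17 under vehicle (standard error 0.15, adjusted p = 0.457, limma) and −0.12 with IMN in WT mice (standard error 0.13, adjusted p = 0.597, limma).

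Peg3 was at 87.7, 115 and 166 TPM in vehicle administered WT mice and at 80.6, 96.3 and 109.5 TPM in WT IMN mice, 2 of which lay below all vehicle mice. It differed by −0.25 on the log2 scale (standard error 0.11, adjusted p = 0.194, limma). It was −0.12 after median-of-ratios scaling (adjusted p = 0.461, limma) and −0.09 with the cortical score as a covariate, and turned to 0.03 without the WT mice low in striatal markers. Peg3 in Brd1+/- mice was at 87.0 to 114 TPM under vehicle and 72.8 to 117 TPM under IMN, with a log2 fold change of −0.01 (95% interval −0.19 to 0.17). Usp29, the neighbor that starts beside Peg3, was at a mean of 5.19 TPM in vehicle administered WT and 6.48 TPM in WT IMN mice.

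Zdbf2 was at 4.70, 7.20 and 9.18 TPM in vehicle administered WT mice and at 6.60, 8.58 and 12.9 TPM in WT IMN mice, 4 of which lay above all vehicle mice. The difference was 0.34 on the log2 scale (standard error 0.15, adjusted p = 0.195, limma), and 0.45 (adjusted p = 0.179) after median-of-ratios scaling. Between the genotypes under vehicle it was 0.27, with 6.40, 7.47 and 16.96 TPM in Brd1+/- mice (adjusted p = 0.332, limma), 0.12 without Brd1+/- mouse 3 and 0.44 after scaling. With IMN in Brd1+/- mice it was 0.0025 (95% interval −0.50 to 0.50), and −0.25 without mice 3 and 6. The interaction was −0.33 (standard error 0.28, adjusted p = 0.567, limma), and −0.18 without Brd1+/- vehicle mouse 3.

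**Figure D4:**
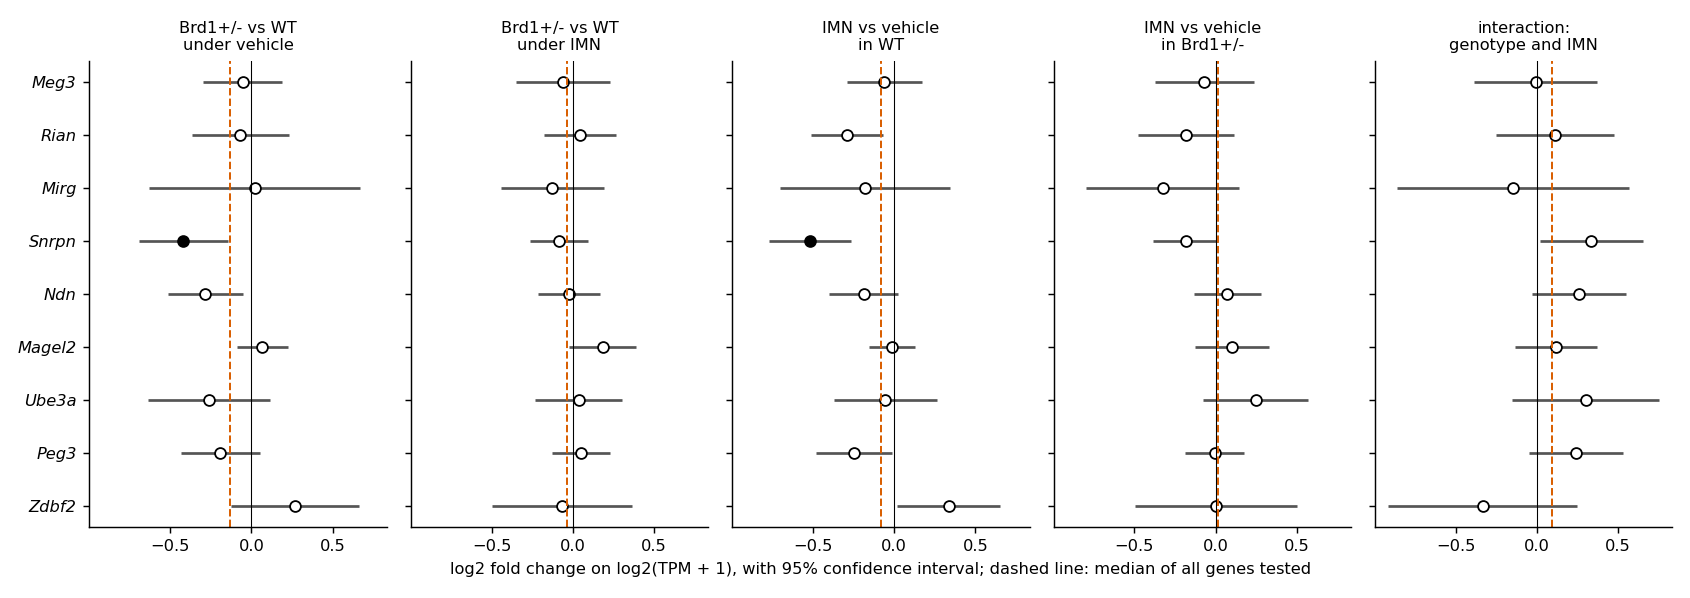
Log2 fold change on log2(TPM + 1) (x axis) with its 95% confidence interval for the 9 members tested (y axis) in each comparison, filled where p was under 0.01, with the median of all genes tested as a dashed line. Snrpn passes in 2 comparisons, at −0.42 and −0.52, and no other point is filled.

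Counted over the members, 1 of 9 tested passed a p under 0.01 between the genotypes under vehicle, where 13.6% of the 23200 genes did, 1.47% higher and 12.1% lower. Their median log2 fold change was −0.07 against −0.13 for all genes, with 6 members lower and 3 higher. Relative to that median, Snrpn was at −0.29, Ndn at −0.15 and Zdbf2 at 0.40. Median-of-ratios scaling moved the median of all genes to 0.0023 and the members' to 0.13, with 6 higher and 3 lower. Under IMN, 0 of 9 members passed between the genotypes (0 also at an unadjusted p under 0.05, limma), where 0.703% of 23339 genes did, 0.189% higher and 0.514% lower. With IMN in WT mice, 1 of 9 passed, where 6.95% of 23579 genes did (1.35% higher, 5.60% lower), and 8 of the 9 were lower, with a median of −0.18 against −0.08 for all genes; after scaling, 5 were lower. With IMN in Brd1+/- mice 0 of 9 passed (0 at p under 0.05, limma), where 1.83% of 23020 genes did, 0.869% higher and 0.964% lower. In the interaction 0 of 9 passed (1 at p under 0.05, limma), where 3.74% of 25394 genes did, 2.97% higher and 0.780% lower. No member passed an FDR of 5% in these fits, although Snrpn and Ndn did in some alternatives. Of all genes, 0.00428% passed it between the genotypes under IMN, 0.00424% with IMN in WT mice and 0% in the other comparisons.

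Of 49 other imprinted genes in the data, 42 were tested between the vehicle groups. At a p under 0.01, 1 was higher in Brd1+/- mice, Igf2, a growth factor gene (log2 fold change 0.63, standard error 0.17, adjusted p = 0.0556, limma), and 4 were lower. These were Gnas (−1.29), which encodes the Gs alpha subunit, Mcts2 (−0.36), Nap1l5 (−0.71) and Impact (−0.33). These 5 of 42 stand beside 13.6% of all genes. With IMN in WT mice 3 of 42 passed, where 6.95% of all genes did, Igf2 at a log2 fold change of 0.53, Gnas at −0.94 and Peg13 at −0.43. With IMN in Brd1+/- mice 1 of 42 passed, where 1.83% of all genes did, Peg13, a noncoding RNA, at −0.20 (standard error 0.06, adjusted p = 0.408, limma). Between the genotypes under IMN 0 of 42 passed (0 at an unadjusted p under 0.05, limma), and in the interaction 2 of 43 did, where 3.74% of all genes did, Gnas at 1.42 and Igf2 at −0.64. Igf2 was at 6.15 to 14.2 TPM in vehicle administered WT mice and at 11.3 to 24.9 TPM in vehicle administered Brd1+/- mice. Median-of-ratios scaling turned none of these directions, but under vehicle Mcts2 (−0.18), Nap1l5 (−0.52) and Impact (−0.14) no longer passed. Without the WT mice low in striatal markers, the log2 fold changes under vehicle were 0.59 for Igf2 and −0.64 for Gnas, and those of Nap1l5, Mcts2 and Impact were −0.12, −0.12 and −0.09, none of which passed (adjusted p = 1.0 for each, limma). With IMN in WT mice Igf2 was then at 0.50, Gnas at −0.29 and Peg13 at −0.19, and in the interaction Gnas at 0.77 and Igf2 at −0.61, and again none passed. With the cortical score as a covariate, Igf2 (0.66) and Gnas (−0.75) still passed the nominal threshold under vehicle, but Nap1l5 (−0.28), Mcts2 (−0.19) and Impact (−0.13) did not. Igf2 (0.57) also passed with IMN in WT mice, unlike Gnas (−0.39) and Peg13 (−0.28). In the interaction Gnas (0.89) passed and Igf2 (−0.63) did not. None of these met an FDR of 5%. Rtl1, which lies between Meg3 and Rian on the opposite strand, was at means of 1.59 TPM in vehicle administered WT and 2.17 TPM in WT IMN mice, and differed by 0.30 on the log2 scale (standard error 0.11, adjusted p = 0.155, limma).

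Whether neighbors move together was asked within groups, over 31 mice, for 6 pairs on group-centered log2(TPM + 1), by permutation within groups and adjusted over the 6. Ndn and Magel2 correlated at r = 0.677 (permutation p = 1e-05, the smallest that 100000 resamples give, adjusted p = 6e-05) with Spearman's rho of 0.665 (permutation p = 4e-05, adjusted p = 0.00024). Within the groups r was 0.497 (WT vehicle), 0.721 (Brd1+/- vehicle), 0.75 (WT IMN) and 0.836 (Brd1+/- IMN), and without the 2 mice farthest from the median of Ndn it was 0.614. Each had a higher r with a gene outside the members, Ndn with Pgrmc1 (0.915) and Magel2 with Rfwd3 (0.819). The permutation asks only whether 2 genes vary independently within groups. It cannot tell neighbors from other genes that vary together across punches of differing tissue markers. Meg3 and Rian had r = 0.471 (permutation p = 0.0157, adjusted p = 0.032) and rho = 0.406 (permutation p = 0.0373, adjusted p = 0.105), and r = 0.309 without 2 mice. Meg3 and Mirg had r = 0.427 (permutation p = 0.016, adjusted p = 0.032) and rho = 0.378 (permutation p = 0.0526, adjusted p = 0.105), with r of 0.708, 0.691, 0.156 and 0.17 in the groups in the same order. Rian and Mirg (r = 0.169, rho = 0.176), Ndn and Snrpn (r = 0.193, rho = 0.23) and Snrpn and Ube3a (r = −0.115, rho = −0.0274) had adjusted permutation p between 0.363 and 0.889. Ndn and Snrpn had an r of 0.689 in WT IMN and of −0.539 in Brd1+/- IMN mice, and Snrpn and Ube3a of 0.411 in WT vehicle and −0.967 in Brd1+/- vehicle mice. These values rest on 7 or 8 mice per group, and their difference between groups was not tested. The −0.967 includes Brd1+/- vehicle mouse 6, at 532 TPM of Snrpn and 10.5 TPM of Ube3a. Without the 2 mice farthest from the median of Snrpn, the pooled r of Snrpn and Ube3a was 0.182.

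Among 17366 genes of mean TPM of at least 1 outside the members, those with the highest r to each were Inha for Meg3 (r = 0.869), Ece2 for Rian (0.717), A330023F24Rik for Mirg (0.781), Phka2 for Peg3 (0.843), Gm5802 for Snrpn (0.924), Pgrmc1 for Ndn (0.915), Rfwd3 for Magel2 (0.819), Fam13b for Ube3a (0.882) and Gm17931 for Zdbf2 (0.813). Each is a description over the same 31 mice, which differ in their tissue markers.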

How the data were processed

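RNA of CPu punches from 31 mice was read single-end on the BGISEQ-500. The authors used HISAT2 2.1.0 for alignment to GRCm38 (Ensembl release 90) and StringTie 1.3.4 for levels. The authors deposited TPM for 52636 identifiers, with sums of 999787 to 999918 per mouse and without read counts, and 0 columns were left unused. Read numbers and library strand are not given in the table. The library protocol's strand setting is not given in the sources used here. GENCODE M21 gave symbols for 52403 identifiers and positions.

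Groups and mouse numbers came from the labels. For each comparison, only its 2 groups entered a limma 3.58.1 fit (R 4.3.3) on log2(TPM + 1), with a trended prior, over genes above 0.1 TPM in at least 7 mice of the fit, and the interaction over all mice. Tests were two-sided with p under 0.01 (nominal) and an FDR of 5% (Benjamini-Hochberg), the study's thresholds. The study's edgeR test needs counts and was not used. Simulated data with known changes were run through the same code. Single members were also compared by exact permutation of log2(TPM + 1), unadjusted. Marker scores are mean log2(TPM + 1). Alternatives were a pseudocount of 0.1, no filter, a mean TPM of at least 1, median-of-ratios scaling, 1 fit of all groups, mouse number as a block, a cortical score covariate and each mouse left out. The members, gene lists and tests were chosen with earlier results of these data known. Named are all members, up to 4 other imprinted genes per direction with the smallest p under 0.01, genes overlapping or beside a member, the gene most like each member, and Brd1; Cartpt was added after its values were seen. Of 6318 genes with a median of at least 20 TPM, 8 were listed at 0 in some mouse, so a 0 is given only as listed. Zdbf2linc was not analysed here.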

Additional observations from a re-analysis of the deposited data

Results flagged for a closer look

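Of 39 sets of values of a member in a group, 9 held a mouse far from the others by Dixon's test. Chance gives about 1 in 20 for independent values of a normal distribution. TPM need not follow one, and several flags are of the same mouse, so no excess is read from this count. WT vehicle mouse 2, which had the lowest striatal marker score of all mice, was the highest of its group for Meg3 (621 TPM), Mirg (209.5 TPM) and Peg3 (166 TPM). Mouse 2 of the WT IMN group was the lowest for Rian (204 TPM), and mouse 5 of that group the highest for Mirg (106.5 TPM). Among vehicle administered Brd1+/- mice, mouse 6 was the highest for Snrpn (532 TPM). Brd1+/- IMN mouse 3 was the highest for Magel2 (1.29 TPM). For Dlk1, WT vehicle mouse 1 (0.119 TPM) and Brd1+/- vehicle mouse 3 (0.304 TPM) stood apart only because all others of their groups were listed at 0. Dlk1 of Brd1+/- IMN mice 3 and 6 was not singled out, since a pair of high values hides each other in this test. Causes were not tested.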

How the results depend on the processing

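Snrpn kept its sign in every alternative run in all 5 comparisons. Its call with IMN in WT mice was lost only without the WT mice low in striatal markers, where Rian passed instead, so 1 member still passed. Calls of members between the genotypes under vehicle (1 as reported) were 0 with median-of-ratios scaling, with the cortical score as a covariate, with the replicate block and without the WT mice low in striatal markers, and 2 with all groups in 1 fit. The cause was not tested. An FDR of 5% was met by Snrpn under vehicle (adjusted p = 0.0125) and with IMN in WT mice (0.0193) and by Ndn under vehicle (0.0492) with all groups in 1 fit, and by Snrpn under vehicle at a mean TPM of at least 1 (0.0499, limma throughout). Genes under a p of 0.01 numbered 5005 (genotypes under vehicle) and 3424 (IMN in WT) with 1 fit, 426, 368 and 265 (these and the interaction) with the covariate, and 95, 181 and 105 without the WT mice low in striatal markers. Between the genotypes under IMN they were 97 at a mean TPM of at least 1, and 494 without the Brd1+/- mice with Dlk1, which gave 674 for IMN in Brd1+/- mice. After scaling, 931 genes were higher and 1207 lower under vehicle, against 342 and 2811 as deposited; with IMN in WT mice 674 and 734 against 318 and 1321; between the genotypes under IMN 68 and 89 against 44 and 120; in the interaction 405 and 400 against 753 and 198.

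No log2 fold change past the nominal threshold changed sign in the alternatives run, but some others did, Peg3 for IMN in WT mice (−0.25 as reported) among them. With median-of-ratios scaling these were Peg3 (0.00052), Meg3 (0.14) and Rian (0.13) under vehicle, Ndn between the genotypes under IMN (0.0201), Meg3 (0.067), Ube3a (0.069) and Magel2 (0.021) for IMN in WT mice, Zdbf2 for IMN in Brd1+/- mice (−0.011) and Rian in the interaction (−0.031). Without the WT mice low in striatal markers they were Peg3 (0.083) and Meg3 (0.0901) under vehicle, Peg3 (0.027), Meg3 (0.084) and Ube3a (0.19) for IMN in WT mice, and Peg3 in the interaction (−0.034). With the covariate they were Meg3 under vehicle (0.023), Ube3a (0.13) and Magel2 (0.023) for IMN in WT mice, Zdbf2 for IMN in Brd1+/- mice (−0.0043) and Meg3 in the interaction (0.016). Without the Brd1+/- IMN mice with Dlk1, an alternative chosen after seeing the data as was leaving out mice by striatal markers, they were Rian between the genotypes (−0.028) and Zdbf2 (−0.25), Ndn (−0.013) and Magel2 (−0.0025) for IMN. Zdbf2 for IMN in Brd1+/- mice was −0.000117 with a pseudocount of 0.1 and −0.037 with the replicate block. The study used litter-matched mice, but the labels do not say whether mouse numbers pair them. Correlations of same-numbered mice, from −0.395 to 0.409, cannot decide this, since the mice also differ in tissue markers. The block changed no other call of a member than that of Snrpn under vehicle, whose log2 fold change was then −0.46 with a wider standard error of 0.15 (adjusted p = 0.0688, limma) and where WT mouse 8 has no partner.

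With each mouse left out in turn, genes under a p of 0.01 were 2036 to 5154 under vehicle, 127 to 252 between the genotypes under IMN, 905 to 3576 for IMN in WT mice and 546 to 2571 in the interaction, and members called were 0 to 2 under vehicle, 1 to 2 for IMN in WT mice and 0 to 1 in the interaction. The lowest and highest counts came without WT vehicle mouse 5 and mouse 8 under vehicle and for IMN in WT mice. Ranges that cross 0 were, under vehicle, Meg3 −0.11 to 0.014 and Mirg −0.14 to 0.21; between the genotypes under IMN, Meg3 −0.13 to 0.023, Ube3a −0.054 to 0.093, Zdbf2 −0.18 to 0.017, Ndn −0.069 to 0.024 and Rian −0.019 to 0.11; for IMN in WT mice, Meg3 −0.11 to 0.0072, Ube3a −0.11 to 0.038, Magel2 −0.036 to 0.015 and Mirg −0.34 to 0.014; for IMN in Brd1+/- mice, Peg3 −0.043 to 0.054, Meg3 −0.14 to 0.016 and Zdbf2 −0.11 to 0.15; and in the interaction, Meg3 −0.0797 to 0.076 and Mirg −0.34 to 0.015. Depth is unknown from TPM, and Magel2 and Dlk1 lie near the floor of the scale.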
